A study of Mus musculus with 16 samples.

Results

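The change that came with loss of Trp53bp1 in samples labelled KPC tumours was set against that in samples labelled ID8 tumours, gene by gene. Trp53bp1 encodes 53BP1, a chromatin-bound factor of the DNA damage response. The measure is a difference of differences on the log2 scale, the knockout minus wild-type change in KPC less the same change in ID8. A positive value means that the knockout libraries stood higher, relative to their own wild type, in KPC than in ID8. Genes were kept where at least 3 ID8 libraries and at least 5 KPC libraries reached 1 CPM (counts scaled to the library total), so that transcripts found only in host cells were left out. This kept 11156 of the 18635 genes in the 4 joined tables.

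Bulk RNA was sequenced from 16 mouse samples, which the series text calls different tumours, grown after cell lines were placed in mice of matching strain. ID8 is an ovarian surface epithelial cancer line, and KPC names lines from a genetically engineered mouse model of pancreatic cancer (the alleles of the line used are not given in the labels). The 4 groups were ID8 wild type (n = 3), ID8 Trp53bp1 knockout (n = 3), KPC wild type (n = 5) and KPC Trp53bp1 knockout (n = 5), each labelled as biological replicates. The study set out to look at 53BP1 and the immune response. The host strain, age, implantation site and time of collection are not given in the sources used here. Each genotype of a line is 1 cell line in the labels, so the knockout and a difference between the 2 derived lines cannot be told apart. The contrast between lines also carries every other difference between the ID8 and KPC experiments.

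As background, 53BP1 binds modified nucleosomes beside double-strand breaks and, with RIF1 and the shieldin complex, limits the trimming of DNA ends. This favours end joining over homologous recombination. DNA that leaks into the cytosol can be sensed by cGAS, which signals through STING to interferon and NF-kB target genes. Interferon-stimulated genes are bound at response elements with GAAA repeats, NF-kB targets at sites of their own, and genes of low oxygen at ACGTG cores bound by HIF.

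Genes with exactly 3 ID8 libraries at 1 CPM numbered 170, with a median ID8 mean of 1.11 CPM, and 71 genes with 2 such libraries, at 0.85 CPM, were left out. On the KPC side, 29 genes had exactly 5 libraries at 1 CPM (median KPC mean 1.14 CPM) and 25 with 4 were left out (0.999 CPM). A further 2508 genes reached the limit in KPC but not in ID8, with a median ID8 mean of 0.0173 CPM.

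Leukocyte, T and NK cell and skeletal muscle markers were far lower in ID8 than in KPC wild type. The summed level of 8 leukocyte markers was 0.422 to 0.841 CPM over all ID8 libraries, 432.9 to 1180 CPM in KPC wild type and 982.2 to 1993 CPM in KPC knockout libraries. Of 13 listed T and NK cell markers, 11 were at 0 counts in every ID8 library, as were Ptprc and Adgre1. Erythroid markers summed to at most 0.162 CPM in ID8 libraries and to 75.7 to 218 CPM in KPC libraries. Of 12 endothelial markers, 3 were at 0 counts in every ID8 library, Cdh5 and Kdr among them. Others were not, such as Esam at 126.8 CPM or more and Flt1 at 27.6 CPM or more. The ID8 libraries, though labelled tumours, thus held almost no leukocyte or erythroid transcripts, and the labels also say that RNA was taken from cells. Skeletal muscle markers summed to 874 to 43510 CPM in KPC wild type and 58.7 to 8948 CPM in KPC knockout. The ductal marker Pdx1 was at 20 to 32.1 CPM in KPC and at 0 in ID8, while Wt1 was at 606.9 CPM or more in ID8 and at most 1.8 CPM in KPC. In bulk tissue, fewer cells of a type and less RNA per cell cannot be told apart. Library totals were 17902867 to 19727536 counts. The biological coefficient of variation was 5.08% among ID8 libraries and 25.1% among KPC libraries. In the joint fit its common value was 21.4%, and the test pooled the spread of both lines within each gene.

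Trp53bp1 itself (gene ID 27223) stood lower with knockout in each line, by unequal amounts. Trp53bp1 was at 46.2, 50.6 and 45.5 CPM in the ID8 wild-type libraries and at 18.3, 19 and 19.3 CPM in the ID8 knockout libraries. In KPC it was at 49.5, 48.4, 52.4, 47 and 54.1 CPM in wild type and at 28, 36.5, 37.6, 34.6 and 32.3 CPM in knockout. Knockout and wild type were apart in both lines. By a two-sided exact permutation test p was 0.1 in ID8 and 0.00794 in KPC, the smallest value each design can reach. The log2 changes were -1.33 and -0.59, which differed by 0.76 (SE 0.121, edgeR quasi-likelihood adjusted p = 0.000525). KPC libraries held host transcripts, as above, and their part in the remaining Trp53bp1 level was not tested.

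A difference between the lines in the response to knockout was called for 2953 of the 11156 genes, 26.5% (edgeR quasi-likelihood test of the interaction, Benjamini-Hochberg adjusted p under 0.05 over 14921 genes tested). Of these, 1511 genes (13.5%) had the more positive change in KPC and 1442 (12.9%) the more negative change. A difference of at least 2-fold was called for 669 genes (6%), 433 of them more positive (3.88%) and 236 more negative (2.12%) in KPC. The median difference over all genes was -0.02 on the log2 scale, and the median standard error of a difference was 0.147. In 154 genes, at least 1 group had all its libraries under 1 CPM, so these genes passed through the groups where they were high. For the genes of this kind that were named by rule, each pointed out below, the level rule itself set which ID8 group was the higher. Their ID8 groups could therefore not overlap. Their values are a description with no p. Without them 2833 of 11002 genes were called, 25.7%. Among the 3765 tested genes outside the set, 306 were called, 8.13%, which makes 3259 of all 14921 tested, 21.8%.

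Most of the differing genes were genes that passed in ID8, the line in which more genes passed. Within ID8 alone, 5729 genes passed (51.4%; 2912 higher in knockout and 2817 lower, 26.1% and 25.3%), and within KPC alone 1377 passed (12.3%; 573 higher, 5.14%, and 804 lower, 7.21%). Of the 2953 genes with a called difference, 2014 (68.2%) had passed in ID8 only, 326 (11%) in KPC only, 474 (16.1%) in both lines with opposite signs and 45 (1.52%) in both with the same sign. The remaining 94 had passed in neither line. A difference was called for 40.9% of the 4927 genes that passed in ID8 only and for 56.7% of the 575 that passed in KPC only. The absolute change was larger in ID8 for 1993 of the called genes (67.5%), with medians of 0.37 in ID8 and 0.23 in KPC on the log2 scale. Over all genes of the set the medians were closer, at 0.183 in ID8 and 0.155 in KPC. The median standard error of a change was 0.0661 in ID8 and 0.102 in KPC, so the test within ID8 could call smaller changes. The KPC count ranged from 622 to 2061 when single libraries were left out. Without KPC wild-type replicates 1, 2, 3 and 5 it was 622, 873, 858 and 637, and without KPC knockout replicates 1, 3, 4 and 5 it was 892, 768, 766 and 763. It was 266 with a muscle marker score added to the fit and 238 with a leukocyte score added.

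**Figure D1:**
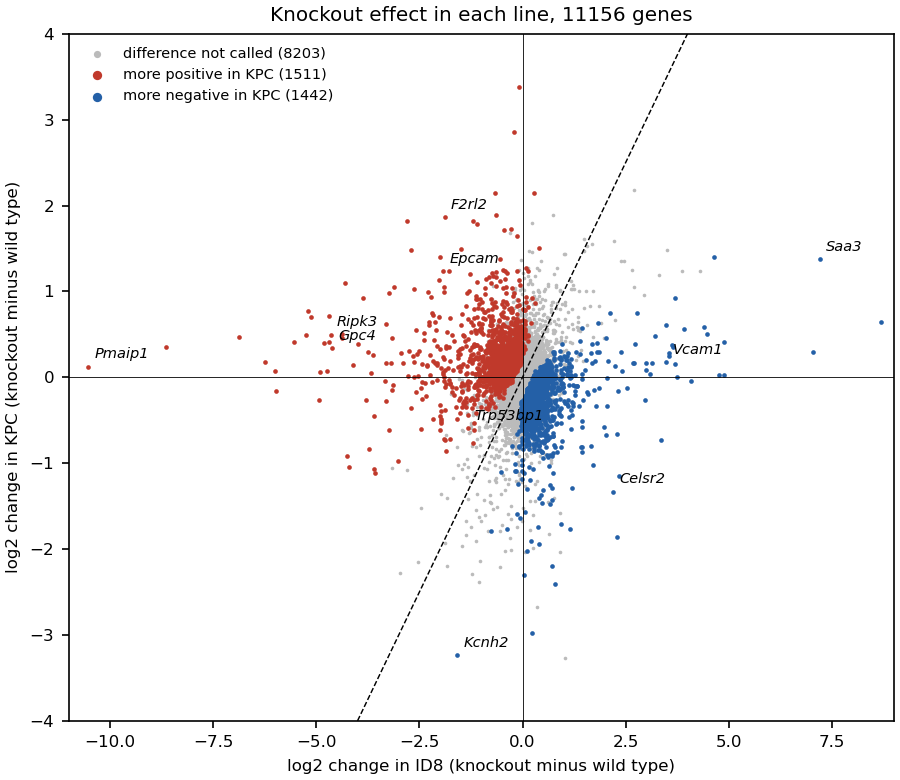
Log2 change with knockout in ID8 (horizontal axis) against that in KPC (vertical axis) for the 11156 genes, each point 1 gene. Coloured points have a called difference between lines (1511 more positive and 1442 more negative in KPC), the dashed line marks equal change, and the place of Pmaip1 rests on a group with 0 counts and is no measured size.

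The 474 genes that passed in both lines with opposite signs all had a called difference, 269 of them higher in ID8 knockout and lower in KPC knockout and 205 the reverse. The same counts entered these tests, so opposite calls all but fixed a called difference, which is no result of its own. The count of genes with opposite signs was 220 to 677 when single libraries were left out. It was lowest without KPC wild-type replicate 1 (220), and it was also over 1.5 times lower without KPC wild-type replicates 3 (287) and 5 (232) and without KPC knockout replicates 1 (307), 3 (263), 4 (276) and 5 (266).

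Genes higher in ID8 knockout and lower in KPC knockout included Celsr2, Fahd2a, Avil and Prss12. Celsr2 (gene ID 53883) encodes an adhesion receptor of the cadherin family that acts in planar cell polarity. Celsr2 was at 0.862, 1.24 and 1.57 CPM in the ID8 wild-type libraries and at 4.67, 7.2 and 5.01 CPM in the ID8 knockout libraries. KPC tumours were at 20.4, 27.6, 22.5, 16 and 32 CPM in wild type and at 4.53, 13, 12.1, 7.22 and 10.8 CPM in knockout. Every ID8 knockout library was above every ID8 wild-type library, and in KPC every knockout library was below every wild-type library. The changes of 2.20 and -1.33 differed by -3.50 on the log2 scale (SE 0.472, edgeR adjusted p = 0.000142). Prss12 (gene ID 19142), the gene of the secreted serine protease neurotrypsin, was at 44.4, 47.6 and 49.3 CPM in ID8 wild type and at 79.5, 88.7 and 101 CPM in ID8 knockout. In KPC wild type it was at 16.7, 14.7, 11.3, 14.5 and 14.5 CPM, and in KPC knockout at 3.71, 5.65, 4.71, 3.97 and 4.22 CPM. Its level rose about 1.91-fold in one line and fell 3.26-fold in the other, with no overlap of groups, a difference of -2.61 (edgeR adjusted p = 3.83e-07).

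Avil (gene ID 11567), which encodes the actin-binding protein advillin, had levels in KPC far above those in ID8. Avil was at 0.862, 0.54 and 0.812 CPM in the ID8 wild-type libraries and at 1.52, 1.52 and 1.84 CPM in the ID8 knockout libraries. KPC wild-type libraries were at 54.1, 64.2, 163.2, 123.9 and 62.9 CPM and KPC knockout libraries at 21.9, 36, 25.5, 24.5 and 30.8 CPM. The KPC groups were apart, and the fitted difference was -2.89 (SE 0.664). Its ID8 wild-type libraries were all under 1 CPM, so Avil passed in ID8 only through the knockout group, which had to be higher. Fahd2a (gene ID 68126) was near the lower limit of the set in all groups, at 0.862, 0.918 and 0.812 CPM in ID8 wild type and 2.31, 2 and 1.69 CPM in ID8 knockout. It was at 3.09, 3.82, 2.45, 2.23 and 3.01 CPM in KPC wild type and 1.69, 1.09, 0.973, 1.27 and 1.03 CPM in KPC knockout. Its KPC groups were also apart, with a fitted difference of -2.47. Fahd2a too passed in ID8 only through the knockout group, so its ID8 groups could not overlap.

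F2rl2, Acap1, Ggt6 and Stac2 went the other way, lower in ID8 knockout and higher in KPC knockout. F2rl2 (gene ID 14064) encodes the protease-activated receptor PAR3. F2rl2 was at 4.09, 3.24 and 3.63 CPM in the ID8 wild-type libraries and at 0.892, 0.841 and 1.21 CPM in the ID8 knockout libraries. The KPC libraries were at 0.506, 0.157, 1, 0.934 and 0.476 CPM in wild type and at 3, 1.76, 2.05, 2.97 and 1.65 CPM in knockout. Both pairs of groups were apart, and the fitted difference was 3.77 (SE 0.563). F2rl2 was near the lower limit of the set and passed the level rule mostly through ID8 wild type and KPC knockout, the groups where it was high. Stac2 (gene ID 217154), an adaptor of voltage-gated calcium channels, was at 74.7, 68 and 75.3 CPM in ID8 wild type and 25.1, 26.1 and 26.5 CPM in ID8 knockout. It was at 1.52, 2.2, 1.7, 1.97 and 1.74 CPM in KPC wild type and 6.22, 5.08, 3.69, 6.89 and 4.22 CPM in KPC knockout. The fall in ID8 was 2.8-fold and the rise in KPC 2.81-fold, a difference of 3.00 (SE 0.23, edgeR adjusted p = 8.03e-07).

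Ggt6 (gene ID 71522), of the gamma-glutamyltransferase family, was at 3.93, 3.78 and 4.44 CPM in ID8 wild type and at 0.577, 0.736 and 0.527 CPM in ID8 knockout. Its KPC wild-type libraries were spread, at 0.759, 1.15, 3.25, 0.519 and 2.11 CPM, and its knockout libraries were at 4.8, 4.41, 4.76, 4.52 and 3.86 CPM. The KPC groups did not overlap, and the fitted difference was 4.22. Ggt6 passed in ID8 only through wild type, which had to be higher. Acap1 (gene ID 216859), a GTPase-activating protein for the trafficking factor ARF6, was at 1.83, 1.35 and 1.68 CPM in ID8 wild type and at 0.105, 0.158 and 0.422 CPM in ID8 knockout. For KPC it was at 2.18, 3.14, 4.66, 10.2 and 2.22 CPM in wild type and at 22.2, 11.8, 12.4, 23.6 and 9.87 CPM in knockout, where 1 wild-type library reached into the knockout range. Summed leukocyte markers moved the same way between the KPC groups, as given above. The fitted difference was 4.63, and 3.31 with a leukocyte score as a covariate. Acap1 passed in ID8 only through wild type, its ID8 knockout libraries being under 1 CPM.

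**Figure D2:**
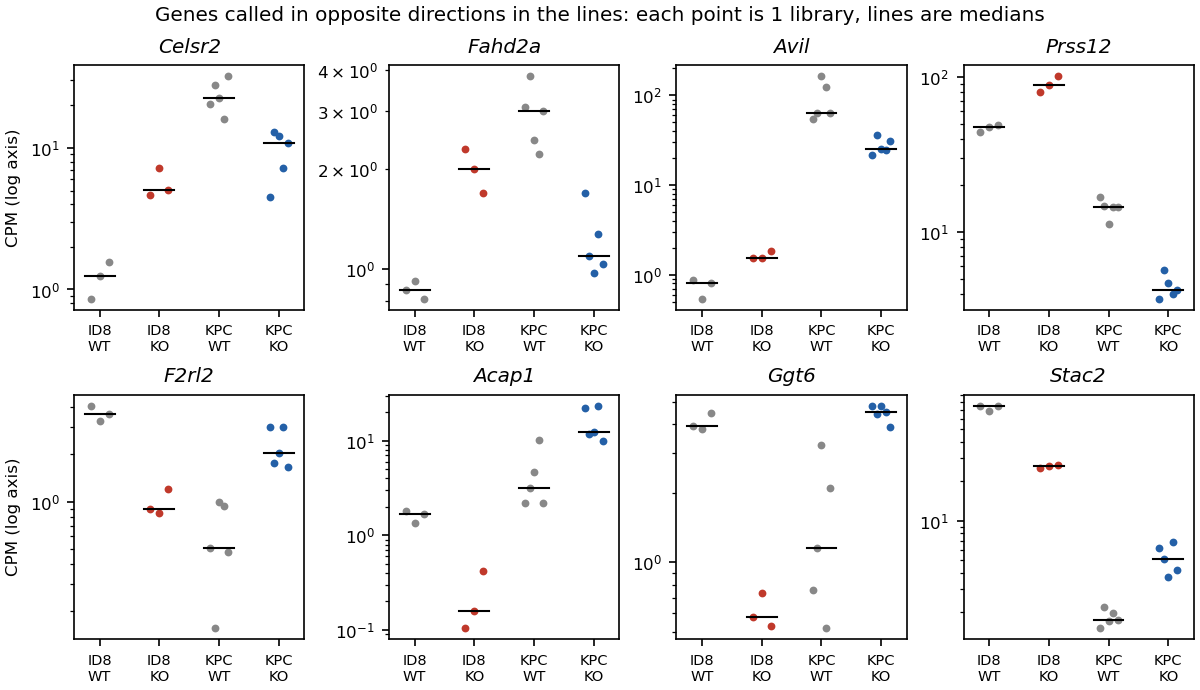
Level in CPM (log axis) of 8 genes that passed in both lines with opposite signs, each point 1 library and each bar a group median. The upper genes are higher in ID8 knockout and lower in KPC knockout than in wild type, and the lower genes are the reverse. Only Acap1 in KPC has overlapping groups. By the level rule the ID8 groups of Fahd2a, Avil, Acap1 and Ggt6 could not overlap, and all 8 genes were picked for passing in both lines.

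Among the largest positive differences, in called genes with a mean of at least 5 CPM in each line, were those of Ripk3, Gpc4, C2 and Kif21b. These 4 genes were lower in ID8 knockout and were not called in KPC. Ripk3 (gene ID 56532) encodes the kinase that carries out necroptosis. Ripk3 was at 10.5, 10.8 and 10.9 CPM in the ID8 wild-type libraries and at 0.42, 0.42 and 0.422 CPM in the ID8 knockout libraries. In the KPC tumours it was at 23.4, 23.5, 38.3, 43.1 and 25.8 CPM in wild type and 48.5, 39.6, 42.4, 48.1 and 41.6 CPM in knockout. The ID8 groups were 25.1-fold apart and the KPC groups overlapped, and the fitted difference was 5.17 (SE 0.364). Ripk3 passed the level rule in ID8 only through its wild-type group, all its ID8 knockout libraries being under 1 CPM. Gpc4 (gene ID 14735), a cell surface heparan sulphate proteoglycan, was at 19.6, 20.4 and 19.1 CPM in ID8 wild type and 0.682, 0.736 and 0.949 CPM in ID8 knockout. Its KPC wild-type libraries were at 12.3, 10.8, 12.2, 17.6 and 10.3 CPM and its knockout libraries at 22.5, 10.7, 13, 17 and 17.7 CPM. The KPC groups overlapped, and the fitted difference was 4.99. Gpc4 too passed in ID8 only through wild type.

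The complement gene C2 (gene ID 12263) was at 10.8, 12.1 and 9.85 CPM in ID8 wild type and 0.525, 0.946 and 0.949 CPM in ID8 knockout, and at 15.9, 12.7, 18.9, 27.9 and 13.1 and 32.1, 12.6, 18.7, 25 and 21.4 CPM in the KPC groups. The KPC groups overlapped. C2 passed in ID8 only through wild type, its ID8 knockout libraries being under 1 CPM, and its fitted difference was 4.06 (SE 0.47). With a leukocyte score as a covariate within KPC it was 3.16.

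The largest negative differences under the same rule were those of Saa3, Neurl3, Oas1a, Mt2 and Vcam1, which rose in ID8 knockout. Mt2 (gene ID 17750) encodes a metal-binding metallothionein. Mt2 was at 1.99, 1.84 and 1.79 CPM in the ID8 wild-type libraries and at 22.9, 25.3 and 24.5 CPM in the ID8 knockout libraries. In KPC it was at 69.3, 87.4, 108.5, 113.2 and 57.6 CPM in wild type and 122, 64, 56.3, 105.7 and 143.6 CPM in knockout. The ID8 groups were 12.9-fold apart and the KPC groups overlapped over most of their range, a difference of -3.52 (SE 0.483, edgeR adjusted p = 0.00016). Neurl3 (gene ID 214854), which encodes a ubiquitin ligase, was at 0.7, 0.648 and 0.379 CPM in ID8 wild type and 12.1, 13.5 and 13 CPM in ID8 knockout. KPC wild-type libraries were at 57.2, 69.1, 84.4, 113.1 and 60.7 CPM and knockout libraries at 108.1, 93.6, 120.3, 114 and 114.8 CPM. In KPC the highest wild-type library stood above 2 knockout libraries, and the fitted difference was -3.95. Neurl3 passed the level rule in ID8 only through the knockout group.

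Vcam1 (gene ID 22329), an adhesion molecule for leukocytes, was at 250.2, 271.2, 276.7, 270.7 and 165.5 CPM in KPC wild type and 246.7, 272.3, 281.6, 326.6 and 284.7 CPM in KPC knockout, against 15.5 to 17.1 and 174.4 to 192.3 CPM in the ID8 groups. All KPC libraries but wild-type replicate 5 were thus above the ID8 knockout libraries. Its difference of -3.29 was called (SE 0.192, edgeR adjusted p = 5.15e-08). The acute phase gene Saa3 (gene ID 20210) was at 7.95, 12.9, 34.3, 35.8 and 13.3 CPM in KPC wild type and 129.4, 17.1, 27.6, 45.1 and 55.8 CPM in KPC knockout. In ID8 it was at 0.108, 0.108 and 0.162 and 18.9, 18.9 and 20.7 CPM. With 7 counts in all over the ID8 wild-type libraries, its difference of -5.80 had a 95% interval of -9.85 to -1.75. Saa3 passed in ID8 only through the knockout group.

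Of the 328 genes that passed in both lines with the same sign (127 higher in both, 201 lower in both), 45 differed in size. Ccl20 (gene ID 20297), a chemokine of dendritic cells and T cells, was at 0.323, 0.108 and 0.0541 CPM in ID8 wild type and 4.2, 4.63 and 3.69 CPM in ID8 knockout. It was at 0.506, 1.41, 0.801, 0.519 and 0.423 CPM in KPC wild type and 2.18, 1.92, 2.41, 1.65 and 1.7 CPM in KPC knockout. The KPC groups were apart, and the fitted difference was -3.21 (SE 0.645). Ccl20 was under 1 CPM in all ID8 wild-type libraries and passed in ID8 only through the knockout group. In KPC it passed mostly through the knockout group. The guanylate-binding protein gene Gbp9 rose 6.88-fold in ID8 and 1.68-fold in KPC. Kcnh2, the gene of a cardiac potassium channel, fell in both, from 80.8, 77.5 and 75.6 to 25.8, 25.5 and 26.2 CPM in ID8 and from 11.4, 8.33, 4.21, 4.05 and 12.7 to 0.654, 0.83, 0.819, 0.771 and 1.29 CPM in KPC. It fell more in KPC, with a fitted difference of -1.62, though it passed the level rule there mostly through wild type. The call of its difference was lost without ID8 wild-type replicate 3, and the difference was -0.34 with a leukocyte score as a covariate (edgeR adjusted p = 0.525). Olfml2a, of the olfactomedin family, fell 12.1-fold in ID8 and 2.10-fold in KPC, a difference of 2.55 (edgeR adjusted p = 1.20e-05).

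For 180 of the 328 genes the 95% interval of the difference lay within 1.5-fold either way, 63 higher and 117 lower in both lines. Naip2, a sensor of the NLRC4 inflammasome, rose from 27, 24 and 28.1 to 40.7, 43.2 and 40.2 CPM in ID8 and from 17.9, 20.7, 29.9, 31 and 18.3 to 35.1, 35.6, 39.1, 45.3 and 32 CPM in KPC, with an interval of -0.50 to 0.54. Reads of the similar Naip genes can be split among them, so its values are uncertain. Igfbp4, a binding protein of insulin-like growth factors, fell from 2034, 2023 and 2036 to 1303, 1308 and 1309 CPM in ID8. In KPC it fell from 1405, 1019, 759.5, 948.1 and 1002 to 680.5, 633.9, 705, 512.8 and 689.6 CPM. The folds of 1.55 and 1.62 differed by -0.04 on the log2 scale, with an interval of -0.47 to 0.40. The actin-bundling gene Aif1l (1.61-fold and 1.79-fold higher) and the adaptor gene Shf (1.90-fold and 1.89-fold lower) were the other named genes of this kind. The count of 328 was 159 to 510 over single left-out libraries, and it was highest without KPC wild-type replicate 4. It was lowest without KPC wild-type replicates 5 (159) and 1 (160). It was also over 1.5 times lower without KPC wild-type replicate 2 (197) and KPC knockout replicates 1 (208), 3 (187), 4 (174) and 5 (188).

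The largest share of called genes among the lists described was that of hypoxia and glycolysis, where 28 of 38 genes had the more positive change in KPC and 0 the more negative (73.7%, against 26.5% of all genes). Within ID8 36 of the 38 fell and 1, Car9, rose; within KPC 3 rose (Egln3, P4ha2 and Ddit4) and Car12 fell. The median difference was 1.06, against -0.02 over all genes. Pgk1, a glycolytic kinase, was 4057 ± 363.9 CPM in ID8 wild type and 1376 ± 128.2 CPM in ID8 knockout (SD, n = 3). In KPC its level was 585.4 ± 61.5 and 736.3 ± 202.8 CPM (SD, n = 5). The difference was 1.89 (SE 0.241, edgeR adjusted p = 9.38e-05). The glucose transporter gene Slc2a1 (1.23), the angiogenic factor gene Vegfa (1.05) and the lactate exporter gene Slc16a3 (2.04) also had a called difference. Hk1, the hexokinase of the first step of glycolysis, was at 189.4, 165 and 166.4 CPM in ID8 wild type and 71.9, 81.2 and 80.5 CPM in ID8 knockout. In KPC wild type it was at 154.1, 158.4, 176.9, 183.5 and 144.4 CPM and in KPC knockout at 165.7, 174.3, 166.4, 183.6 and 158.6 CPM. Hk1 thus fell about 2.22-fold in ID8 with no overlap and had overlapping groups in KPC (difference 1.21, edgeR adjusted p = 6.74e-06).

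Ddit4, P4ha2 and Egln3 passed in opposite directions. Ddit4 (gene ID 74747), which encodes the mTOR inhibitor REDD1, was at 525.3, 478.9 and 525.4 CPM in ID8 wild type and 230.1, 266.6 and 258.7 CPM in ID8 knockout. It was at 53.1, 52.5, 55.8, 61.6 and 51.3 CPM in KPC wild type and 99.7, 79.7, 70.2, 70.3 and 85.1 CPM in KPC knockout. The groups were apart in both lines, and the difference was 1.58 (SE 0.146, edgeR adjusted p = 4.38e-06). P4ha2 (gene ID 18452), a collagen prolyl hydroxylase subunit, was 87.8 ± 5.58 and 31.1 ± 2.35 CPM in the ID8 wild-type and knockout groups (SD, n = 3). The KPC values were 61.5 ± 8.36 and 95.4 ± 26 CPM (SD, n = 5), a difference of 2.13 (edgeR adjusted p = 3.87e-05). With a leukocyte score as a covariate within KPC, 18 of the 38 genes were called as more positive.

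**Figure D3:**
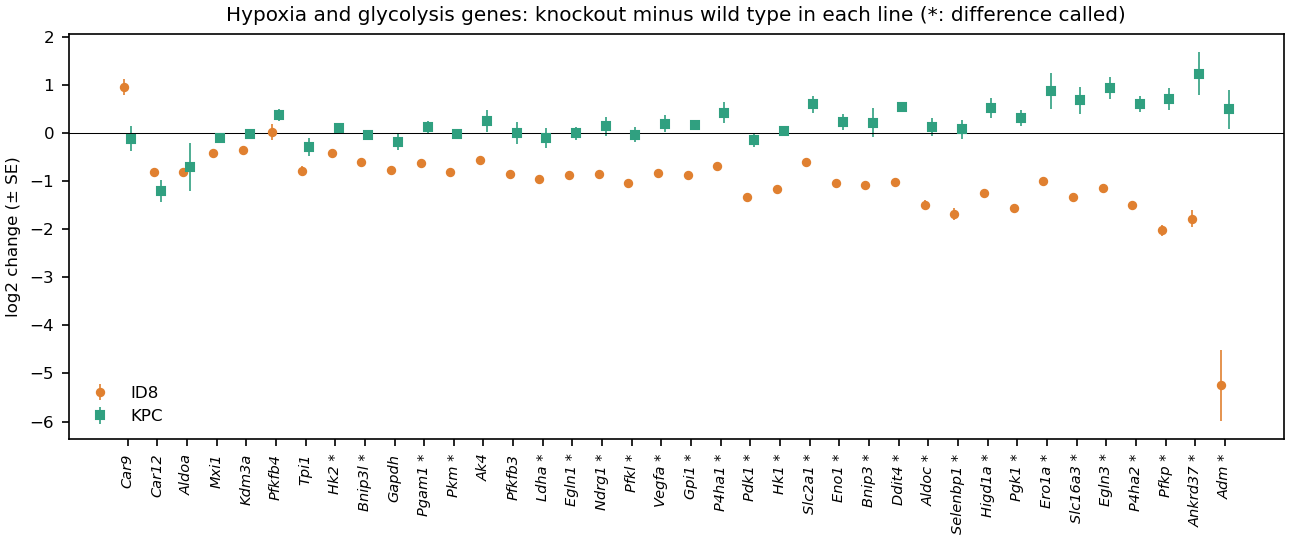
Log2 change with knockout (vertical axis, bars are standard errors of the fit) in ID8 and in KPC for the 38 hypoxia and glycolysis genes, ordered by the difference between lines, with an asterisk where the difference was called. ID8 values lie below 0 for all but Car9 and Pfkfb4, and KPC values lie around 0 with Egln3, P4ha2 and Ddit4 called above it.

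Promoter sequences are shown for 2 genes of each of the 3 lists with a known core motif, each with its motif in capitals. These are the called genes of smallest p whose promoter holds the motif, and called genes without it were passed over. The sequences are the 250 bases before the transcription start in RefSeq (GRCm38.p6, while the count tables were made on GRCm39), printed 5′ to 3′ in the sense of the gene. The hypoxia response element core ACGTG was searched on both strands. The Ddit4 promoter (chr10:59951771-59952020, minus strand) holds it 187 bases before the start, and that of P4ha2 (chr11:54100674-54100923, plus strand) 78 bases before the start.
Ddit4: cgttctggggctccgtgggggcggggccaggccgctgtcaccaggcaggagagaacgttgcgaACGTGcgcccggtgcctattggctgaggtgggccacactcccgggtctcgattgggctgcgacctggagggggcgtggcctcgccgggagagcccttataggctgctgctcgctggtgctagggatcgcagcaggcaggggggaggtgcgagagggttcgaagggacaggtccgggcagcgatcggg
P4ha2: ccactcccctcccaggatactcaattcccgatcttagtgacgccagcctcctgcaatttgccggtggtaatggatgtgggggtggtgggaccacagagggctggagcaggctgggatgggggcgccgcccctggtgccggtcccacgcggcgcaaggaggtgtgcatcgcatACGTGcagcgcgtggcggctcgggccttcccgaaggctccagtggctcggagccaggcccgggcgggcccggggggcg
Promoters in the table matched 8994 of the 11156 genes by gene, with some genes holding several starts, and the search used 300 bases, 250 before and 50 after each start. ACGTG was in 20 of 34 promoters of called hypoxia genes (58.8%) and in 29 of 54 promoters of the whole hypoxia list (53.7%). Over all genes of the set it was in 25.8% of promoters, and over all 32851 promoters in 19.6%. It was in 26.1% of promoters of genes more positive in KPC and in 26.3% of those more negative. A match is a stretch of letters and no measure of binding.

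Interferon-stimulated genes went the other way. Of 47 genes, 18 had the more negative change in KPC and 0 the more positive (38.3% called, against 26.5% of all genes), with a median difference of -0.65. Of these 47, 45 rose in ID8 and 0 fell, and 4 rose in KPC (Slfn2, Isg20, Shisa5 and Ifi35) and 0 fell. However, 11 of the 47 had a group with all libraries under 1 CPM and so had to be low there. Of the other 36, 8 were called, all more negative in KPC (22.2%, against 25.7% of all genes without such a group, of which 12.8% in that direction). These 8 were Ifit1, Ifit3, Irf9, Lgals3bp, Slfn2, Samd9l, Phf11d and Ifitm3. Irf9, the DNA-binding subunit of the interferon-activated complex, was 14.6 ± 0.743 and 30.7 ± 1.97 CPM in ID8 wild type and knockout (SD, n = 3). KPC tumours had 39.4 ± 9.56 and 47.4 ± 7.17 CPM (SD, n = 5), and the difference was -0.80 (SE 0.237, edgeR adjusted p = 0.0252). Samd9l, an antiviral restriction factor, had changes of 0.75 and -0.02 (difference -0.74, edgeR adjusted p = 0.00165). With a leukocyte score as a covariate within KPC, 31 of the 47 were called as more negative.

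Rsad2, Oas1a and Oas2 were among the genes with all ID8 wild-type libraries under 1 CPM, which passed in ID8 only through the knockout group. Rsad2 (gene ID 58185), which encodes the antiviral enzyme viperin, was at 0.269, 0.27 and 0.541 CPM in ID8 wild type and 3.04, 3.1 and 3.11 CPM in ID8 knockout. It was at 3.69, 4.66, 5.91, 7.63 and 3.38 CPM in KPC wild type and 6.98, 2.96, 2.87, 6.67 and 6.84 CPM in KPC knockout. ID8 knockout libraries thus reached the lower KPC levels, and the KPC groups overlapped (fitted difference -3.02, SE 0.558). Oas1a (gene ID 246730), an oligoadenylate synthetase that senses double-stranded RNA, was at 7.69, 12.5, 15.3, 25.1 and 8.09 CPM in KPC wild type and 34.8, 9.18, 12.9, 26.3 and 20.7 CPM in KPC knockout, with overlapping groups and a difference of -3.80. The interferon-stimulated response element core was searched on both strands as GAAA, any 2 bases and GAAA. It lies 120 bases before the start of Rsad2 (chr12:26456453-26456702, minus strand), there on the other strand, and 20 bases before that of Oas1a (chr5:120907526-120907775, minus strand), where 2 overlapping matches make up the capitals.
Rsad2: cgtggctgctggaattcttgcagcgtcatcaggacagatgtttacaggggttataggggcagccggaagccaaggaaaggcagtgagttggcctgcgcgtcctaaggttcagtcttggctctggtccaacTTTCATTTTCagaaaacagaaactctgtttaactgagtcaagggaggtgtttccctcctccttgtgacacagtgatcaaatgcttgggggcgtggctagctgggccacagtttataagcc
Oas1a: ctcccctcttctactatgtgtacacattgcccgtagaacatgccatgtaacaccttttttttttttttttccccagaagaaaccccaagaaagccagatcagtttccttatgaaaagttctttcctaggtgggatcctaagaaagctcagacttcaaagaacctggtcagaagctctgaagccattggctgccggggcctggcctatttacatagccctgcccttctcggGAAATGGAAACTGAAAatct
The motif was in 10 of 18 promoters of the called genes of this list (55.6%) and in 20 of 49 promoters of the whole list (40.8%). Over the whole set it was in 3.03% of promoters, and over all promoters in 3.44%. Among genes of the set at large, it was in 3.14% of promoters of genes more positive in KPC and in 3.15% of those more negative. Reads of the near-identical Oas1 genes can be split among them by the counting, so their single values are uncertain.

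Inflammatory and NF-kB target genes had 13 of 26 genes more negative and 1 more positive in KPC (53.8% called in all, against 26.5% of all genes). Without 6 genes that had a group under 1 CPM, 7 of 20 were more negative and 1 was more positive (40%, against 25.7% of all genes without such a group). Nfkbiz (gene ID 80859), an atypical IkB protein that co-activates secondary NF-kB targets, was at 9.86, 9.77 and 9.69 CPM in ID8 wild type and 47, 55.8 and 52.7 CPM in ID8 knockout. KPC tumours were at 59, 61.4, 71.1, 72.9 and 80.8 CPM in wild type and 72.6, 71.8, 71.8, 76.4 and 76.4 CPM in knockout. All KPC libraries were above the ID8 knockout libraries, the KPC groups overlapped, and the difference was -2.31 (SE 0.129, edgeR adjusted p = 2.36e-08). The neutrophil chemokine genes Cxcl1, Cxcl2 and Cxcl5 rose in ID8 and were not called in KPC. Cxcl1 (gene ID 14825) was 6.19 ± 0.685 and 104.6 ± 4.28 CPM in ID8 wild type and knockout (SD, n = 3) and 1.58 ± 0.302 and 1.56 ± 1.02 CPM in the KPC groups (SD, n = 5), a difference of -4.11 (edgeR adjusted p = 4.33e-05). Cxcl5 had a difference of -3.26, and Cxcl2 (gene ID 20310), at 0.0359 ± 0.0622 CPM in ID8 wild type, one of -4.83. Cxcl2 passed in ID8 only through the knockout group, which had to be higher. The single gene in the other direction was the complement gene C3, lower in ID8 knockout (-0.42) and higher in KPC knockout (1.24). Its call was lost without ID8 knockout replicates 1 or 3 and with a leukocyte score as a covariate.

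The NF-kB motif, searched on both strands as GGGA, any 2 bases and TTCC, lies 71 bases before the start of Cxcl1 (chr5:90890995-90891244, plus strand) and 97 bases before that of Cxcl2 (chr5:90903649-90903898, plus strand). In both the capitals join overlapping matches of the 2 strands.
Cxcl1: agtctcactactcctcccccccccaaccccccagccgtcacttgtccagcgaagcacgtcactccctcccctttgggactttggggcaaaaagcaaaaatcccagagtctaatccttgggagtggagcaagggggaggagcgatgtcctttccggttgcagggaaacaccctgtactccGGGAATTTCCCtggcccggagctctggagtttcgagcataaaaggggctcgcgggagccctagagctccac
Cxcl2: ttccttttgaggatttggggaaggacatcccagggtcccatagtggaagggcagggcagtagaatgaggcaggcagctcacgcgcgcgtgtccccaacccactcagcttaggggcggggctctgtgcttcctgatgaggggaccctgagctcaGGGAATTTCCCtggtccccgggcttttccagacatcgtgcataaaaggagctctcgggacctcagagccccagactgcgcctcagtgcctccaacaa
It was in 6 of 20 promoters of this list and in 2 of 9 promoters of its called genes, against 1.54% over the whole set and 1.47% of all promoters. Among genes of the set at large, it was in 1.14% of promoters of genes more positive in KPC and in 2.53% of those more negative. Both promoters printed, picked because they hold the motif, carry the same stretch of 11 bases, GGGAATTTCCC.

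Interferon-gamma response genes had median changes of 1.58 in ID8 and 1.24 in KPC. Of 20 genes, 18 rose in ID8 and 5 in KPC. A called difference was found for 1, Gbp9 (5%, under the 26.5% of all genes). Without genes that had a group under 1 CPM it was 1 of 18. Gbp2, for example, had changes of 2.23 and 1.59, with an SE of 0.964 on their difference of -0.63. Of 17 genes of MHC class I presentation, 2 had the more positive change in KPC (11.8%, under the 13.5% of all genes in that direction). Both were of the antigen-processing proteasome. Psmb10, a catalytic subunit of the immunoproteasome, was 65.3 ± 0.571 and 69.1 ± 2.71 CPM in ID8 (SD, n = 3) and 55.6 ± 25 and 135.4 ± 24.1 CPM in KPC wild type and knockout (SD, n = 5). Its log2 changes were 0.09 and 1.27 (edgeR adjusted p of the difference = 0.0313). Psme1, a proteasome activator subunit, had a difference of 0.67. Leukocyte markers summed to higher levels in KPC knockout than in most KPC wild-type libraries. The fit with a leukocyte score as a covariate was run, but its values for these 2 genes are not given here. Apart from that fit, the part of leukocytes in these values was not tested.

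In the cGAS-STING list, 4 of 20 genes had the more positive change in KPC and 0 the more negative (20% called, under the 26.5% of all genes; 13.5% of all genes were more positive). The adaptor gene Sting1 (gene ID 72512) was at 102.9, 105.8 and 108 CPM in ID8 wild type and 100, 97.3 and 104.7 CPM in ID8 knockout, which overlapped. The KPC libraries were at 107.1, 118.6, 117.1, 151 and 108.9 CPM in wild type and 170.1, 134.1, 168, 180 and 166.5 CPM in knockout, where the highest wild-type library was above the lowest knockout library. Its difference of 0.51 (SE 0.15, edgeR adjusted p = 0.0241) was 0.48 with a muscle marker score as a covariate (edgeR adjusted p = 0.0629) and 0.21 with a leukocyte score (0.263). The call was also lost without ID8 wild-type replicate 3 or ID8 knockout replicates 1 or 2. Cgas, the DNA sensor, was at 6.63, 6.86 and 6.71 CPM in ID8 wild type and 9.39, 6.94 and 8.91 CPM in ID8 knockout. For KPC it was at 2.68, 2.46, 4.16, 5.29 and 2.22 CPM in wild type and 6.71, 3.22, 3.64, 5.34 and 4.52 CPM in knockout. Its difference was 0.16, with a 95% interval of -0.69 to 1.00 (edgeR adjusted p = 0.88), and -0.78 with a leukocyte score as a covariate (0.0238). Rnaseh2c and Rnaseh2a, subunits of the enzyme that removes ribonucleotides from DNA, had differences of 0.48 and 0.38, and Zdhhc1 one of 0.41. The call for Rnaseh2c was lost without ID8 wild-type replicate 1, without ID8 knockout replicates 1 or 3, and with a leukocyte score.

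Among the partners of 53BP1, 3 of 20 genes had the more negative change in KPC (15%, against 12.9% of all genes in that direction). Rif1 (gene ID 51869), the direct effector of 53BP1, was at 46, 56.7 and 47.4 CPM in ID8 wild type and 54.6, 53.3 and 49.2 CPM in ID8 knockout. In the KPC tumours it was at 56.8, 46.2, 51.3, 35.7 and 56.5 CPM in wild type and 29.8, 34.9, 34.1, 30.2 and 29.8 CPM in knockout. Rif1 thus fell in KPC with no overlap and had overlapping groups in ID8, a difference of -0.70 (SE 0.179, edgeR adjusted p = 0.0117). With a leukocyte score as a covariate it was -0.35 and no longer called. Kmt5a, the methyltransferase that writes the histone H4 mark from which the 53BP1 binding site is made, rose in ID8 (0.14) and fell in KPC (-0.29), a difference of -0.41. Changes of the shieldin gene Shld1 were 0.37 and -0.23 (difference -0.58, edgeR adjusted p = 0.0491).

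Of 42 double-strand break repair genes, 3 were more positive and 6 more negative in KPC (21.4% called in all, under the 26.5% of all genes). Atm, the apical kinase of the break response, was at 15.7, 19.3 and 16 CPM in ID8 wild type and 31.5, 27.9 and 28.6 CPM in ID8 knockout, and at 57.3, 49.5, 48.1, 41.1 and 60 and 34.1, 46.5, 49, 38.6 and 43.3 CPM in KPC wild type and knockout. It rose in ID8 with no overlap, its KPC groups overlapped, and the difference was -1.06 (SE 0.187, edgeR adjusted p = 0.0011). Both subunits of the Ku end-binding complex had a called difference, of opposite sign. Xrcc6 (Ku70) fell in ID8 (-0.72; 0.08 in KPC, not called), a difference of 0.84, while Xrcc5 (Ku80) rose in ID8 (0.18) and fell in KPC (-0.50), a difference of -0.65. Bard1, the partner of BRCA1, and Xrcc2 also passed in opposite directions; Bard1 changed by 0.45 and -0.39. Other called genes were Lig4, more negative in KPC, and Parp1, more positive.

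DNA replication and mitosis genes had 9 of 40 more negative and 0 more positive in KPC (22.5% called, against 26.5% of all genes and 12.9% in that direction). Within the lines, 13 rose and 6 fell in ID8, and 0 rose and 6 fell in KPC. Ccne1, the cyclin of S phase entry, was at 1.35, 1.08 and 1.3 CPM in ID8 wild type and 4.2, 3.05 and 4.64 CPM in ID8 knockout, and at 6.23, 7.28, 9.61, 7.84 and 7.87 and 11.9, 7.73, 8.96, 11.1 and 8.38 CPM in KPC (difference -1.36, edgeR adjusted p = 0.00273). Kif11, the spindle motor Eg5, rose in ID8 (0.38) and fell in KPC (-0.29), where its groups overlapped (difference -0.65). The mitotic transcription factor gene Foxm1 also passed in both lines with opposite signs (0.28 and -0.30).

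Of 29 p53 target genes, 7 were more negative and 1 more positive in KPC (27.6% called, near the 26.5% of all genes). Aen, a nuclease of apoptosis, was at 29.5, 26.3 and 27.2 CPM in ID8 wild type and 57, 57.1 and 60.2 CPM in ID8 knockout, and at 37.8, 44.2, 40.5, 43.5 and 41.4 and 45, 41.4, 43.5, 46.3 and 46 CPM in KPC. It rose about 2.11-fold in ID8 and its KPC groups overlapped (difference -0.97, SE 0.0902, edgeR adjusted p = 4.38e-06). Zmat3, an RNA-binding p53 target, had changes of 0.96 and -0.07. The gene in the other direction was Pmaip1 (gene ID 58801), which encodes the BH3-only protein NOXA. Pmaip1 was at 9.59, 9.61 and 10.3 CPM in ID8 wild type and had 0 counts in all 3 ID8 knockout libraries, which is at least 62.2-fold lower when 3 counts in each library, or 0.158 CPM, are taken as the floor. In KPC it was at 36.7, 39.6, 60.9, 71.8 and 38.3 CPM in wild type and 57.9, 47, 55.5, 53.3 and 58.5 CPM in knockout, with overlapping groups. It passed in ID8 only through wild type.

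All 13 called genes of cholesterol synthesis and uptake, of 24, had the more positive change in KPC (54.2% called, against 26.5% of all genes). In ID8 21 of the 24 fell and 0 rose; in KPC Mvd rose, opposite to ID8, and 2 genes fell, Stard4 among them. Ebp (gene ID 13595), the sterol isomerase, was at 140.5, 139.8 and 149.6 CPM in ID8 wild type and 78.4, 77.5 and 78.2 CPM in ID8 knockout. It was at 84.9, 79.1, 74.2, 74.6 and 70.1 CPM in KPC wild type and 89.7, 80.9, 87.2, 88.4 and 78.7 CPM in KPC knockout. The ID8 groups were far apart and the KPC groups overlapped (difference 1.03, SE 0.0909, edgeR adjusted p = 2.85e-06). Nsdhl, a sterol dehydrogenase, had a difference of 1.11, and Fdps, a prenyl transferase of the pathway's trunk, one of 1.08. Of these 24 genes, 6 lie on chromosomes 15, 18, 19 or X, and all 6 were called (Ebp, Stard4, Nsdhl, Sqle, Srebf2 and Tm7sf2). Of the other 18, 7 were called.

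Oxidative phosphorylation genes had 12 of 39 more positive and 0 more negative in KPC (30.8%, near the 26.5% of all genes, of which 13.5% more positive), with a median difference of 0.31. Sdhd, a membrane anchor of complex II, was at 182.1, 175.8 and 174.8 CPM in ID8 wild type and 151.5, 142.1 and 154.5 CPM in ID8 knockout, and at 117, 128.6, 119.3, 120.3 and 126.3 and 146.3, 139.7, 142.5, 131.4 and 139.9 CPM in KPC. Its groups did not overlap in either line, in opposite directions, though the KPC change was not called on its own (difference 0.44, SE 0.0741, edgeR adjusted p = 0.000717). Cox7a2, of complex IV, passed in both lines with opposite signs, with a difference of 0.68. The count was 7 with a leukocyte score as a covariate, 21 without the KPC libraries that had the muscle transcript Acta1 above 1000 CPM and 20 without KPC wild-type replicate 2. In the list of stress responses of the endoplasmic reticulum and of amino acid supply, 7 of 32 genes were more positive in KPC and 0 more negative (21.9%, under the 26.5% of all genes). Asns, asparagine synthetase, had no overlap of groups in either line, lower in ID8 knockout (-0.31) and with a change of 0.22 in KPC. Vldlr, a lipoprotein receptor, fell in ID8 with a change of -3.59, and its KPC groups overlapped (difference 3.17). In ID8 Vldlr passed the level rule mostly through wild type. Of 28 NRF2 and glutathione genes, 7 were more positive in KPC and 1, Cbr3, more negative (28.6% called, near the 26.5% of all genes). Me1 (0.75) and G6pdx (0.64), whose enzymes supply NADPH, had the smallest p of the list.

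Keratin and epithelial junction genes had 11 of 19 more positive in KPC and 0 more negative (57.9% called, against 26.5% of all genes), and 5 of them passed in opposite directions. Krt18 (gene ID 16668), a simple epithelial keratin, was at 867.4, 797.8 and 830.5 CPM in ID8 wild type and 566.7, 571.3 and 574.6 CPM in ID8 knockout. KPC tumours were at 1276, 1221, 1279, 1320 and 1310 CPM in wild type and 1883, 2037, 1699, 1749 and 1673 CPM in knockout. Its groups were apart in both lines (difference 1.04, SE 0.0891, edgeR adjusted p = 2.16e-06). Epcam (gene ID 17075), an epithelial adhesion molecule, was at 2.96, 3.62 and 3.3 CPM in ID8 wild type and 0.629, 0.946 and 1 CPM in ID8 knockout. It was at 151.5, 188.8, 176.4, 121 and 242.5 CPM in KPC wild type and 450.8, 450.6, 439.4, 402.9 and 360.8 CPM in KPC knockout. Epcam fell 3.8-fold where it was scarce and rose 2.35-fold where it was abundant, a fitted difference of 3.19 (SE 0.325). In ID8 Epcam passed the level rule mostly through wild type. Krt8, Krt19 and Krt7 were the others, with differences of 1.27, 1.31 and 1.18. Of the 6 genes of this list on chromosomes 15, 18, 19 or X, 4 were called (Krt7, Krt8, Krt18 and Dsc2), and of the other 13, 7 were.

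Mesenchymal and matrix genes had 10 of 34 more positive and 2 more negative in KPC (35.3% called, against 26.5% of all genes). Col3a1, a fibrillar collagen, was at 366.2, 366.2 and 300.3 CPM in ID8 wild type and 41.9, 51.8 and 59.2 CPM in ID8 knockout, and at 6192, 4191, 5704, 7911 and 5379 and 9512, 5968, 6842, 8950 and 5527 CPM in KPC. It fell 6.73-fold in ID8, with overlapping KPC groups (difference 3.08, SE 0.289, edgeR adjusted p = 7.69e-06). Fibroblast markers, of which Col3a1 is itself 1 of 10, summed to 12290 to 23460 CPM in KPC and to 765.2 to 1066 CPM in ID8. Their part in the KPC level was not tested. In ID8 the sum came mostly from Dcn (420.9 to 625.4 CPM), Col3a1 and Col1a1 (73 to 203 CPM), with smaller parts from Pdgfra and Thy1. Fap was at 0 in ID8, and Col1a2, Lum, Pdgfrb and Dpt were at 0.378 CPM or less. Timp2, an inhibitor of matrix proteases, rose in ID8, with a difference of -1.02, and N-cadherin (Cdh2) rose in ID8 (0.33) and fell in KPC (-0.79). Contractile and YAP-SRF target genes had 9 of 26 more positive and 4 more negative (50% called, against 26.5% of all genes). Myl9, a myosin light chain, was at 5.93, 5.94 and 4.55 CPM in ID8 wild type, 0.105, 0.105 and 0.316 CPM in ID8 knockout, and 39.8 to 71.2 CPM in KPC. It passed in ID8 only through wild type. Cnn2, a calponin, fell about 1.92-fold in ID8 (difference 0.98), and the pathway factors Yap1, Tead1 and Lats2 and the receptor kinase gene Axl were the 4 more negative in KPC.

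Of 10 ovarian and mesothelial genes that passed the level rule, Aldh1a1 and Gata6 were more negative and Star was more positive in KPC (30% called, near the 26.5% of all genes). Aldh1a1, a retinaldehyde dehydrogenase, was at 76, 75 and 73.9 CPM in ID8 wild type and 306.5, 321.5 and 301.9 CPM in ID8 knockout, and at 8.05, 16.5, 19.2, 15.6 and 9.25 and 14, 6.38, 8.6, 13.3 and 13 CPM in KPC (difference -2.36, edgeR adjusted p = 0.000581). Star, which brings cholesterol into mitochondria for steroid synthesis, fell 2.19-fold in ID8 (difference 1.07). TGF-beta and BMP signalling had 4 of 30 genes more positive and 8 more negative in KPC (40% called, against 26.5% of all genes). Among the more negative were the receptor gene Bmpr2 (-0.56), the mediator genes Smad2 and Smad4 (-0.52 and -0.30) and the inhibitor Ski (-0.61). The activin subunit Inhbb (1.17) went in the other direction. All 4 genes of this list on chromosomes 15, 18, 19 or X were called as more negative (Ltbp3, Smad2, Smad4 and Smad7). Of the other 26, 8 were called, 4 more positive and 4 more negative, with no lean to either side. WNT and Notch signalling had 2 of 26 more positive and 3 more negative (19.2% called, under the 26.5% of all genes). The ligand gene Wnt7b was at 17, 15 and 15.2 CPM in ID8 wild type and 4.56, 3.94 and 4.9 CPM in ID8 knockout, with overlapping KPC groups at 66.1 to 138.3 CPM (difference 1.94). The co-receptor gene Lrp5 rose in ID8 (0.30), with a change of -0.42 in KPC (difference -0.70). With a leukocyte score as a covariate the Lrp5 difference was no longer called.

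**Figure D4:**
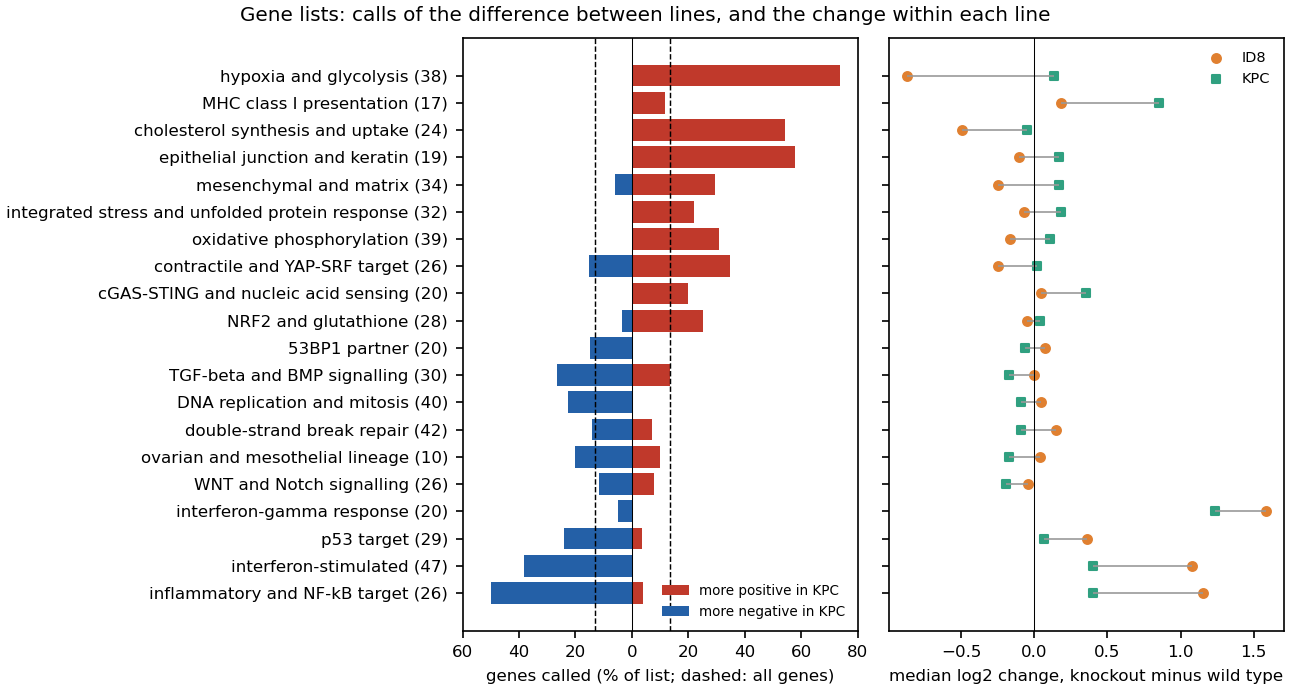
Share of each gene list with a called difference (left, % of the list, number of genes in brackets, dashed lines at the 13.5% and 12.9% of all genes) and median log2 change within ID8 and within KPC (right). Hypoxia and glycolysis, at 28 of 38, reaches farthest to the positive side, and NF-kB targets, at 13 of 26, farthest to the negative side, while interferon-gamma genes are high in both lines.

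Called genes were unevenly spread over the chromosomes. Chromosomes come from the RefSeq table on GRCm38.p6, which matched 11109 of the 11156 genes. On chromosome 15, 189 of 447 genes were called (42.3%, against 26.5% of all), and 178 of these (94.2%) had the more positive change in KPC. On chromosome X, 152 of 350 were called (43.4%), 143 of them more positive. The median change in ID8 was -0.30 on chromosome 15 and -0.35 on chromosome X, while in KPC it was 0.01 and -0.02. Cut by position into 4 parts of equal gene number, chromosome 15 had ID8 medians between -0.29 and -0.31 in all 4, and chromosome X between -0.35 and -0.37. In the first of these parts on chromosome 15, with an ID8 median of -0.30, the KPC median was -0.21, and 37 of 111 genes were called.

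On other chromosomes the calls leaned one way or the other. On chromosome 19, 126 of the 151 called genes (of 414) were more negative in KPC, with a median change of 0.22 in ID8 and -0.02 in KPC. On chromosome 18, 85 of the 106 called genes (of 287) were more negative, and there the median was 0.04 in ID8 and -0.24 in KPC, from -0.23 to -0.29 over its 4 parts. On chromosome 5, 186 of 223 called genes were more negative, and on chromosome 11, 193 of 238 were more positive, with a KPC median of 0.11. Without chromosomes 15, 18, 19 and X, 2355 of 9658 genes were called (24.4%). The copy number of these chromosomes was not measured here, and its part in the shifts was not tested.

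**Figure D5:**
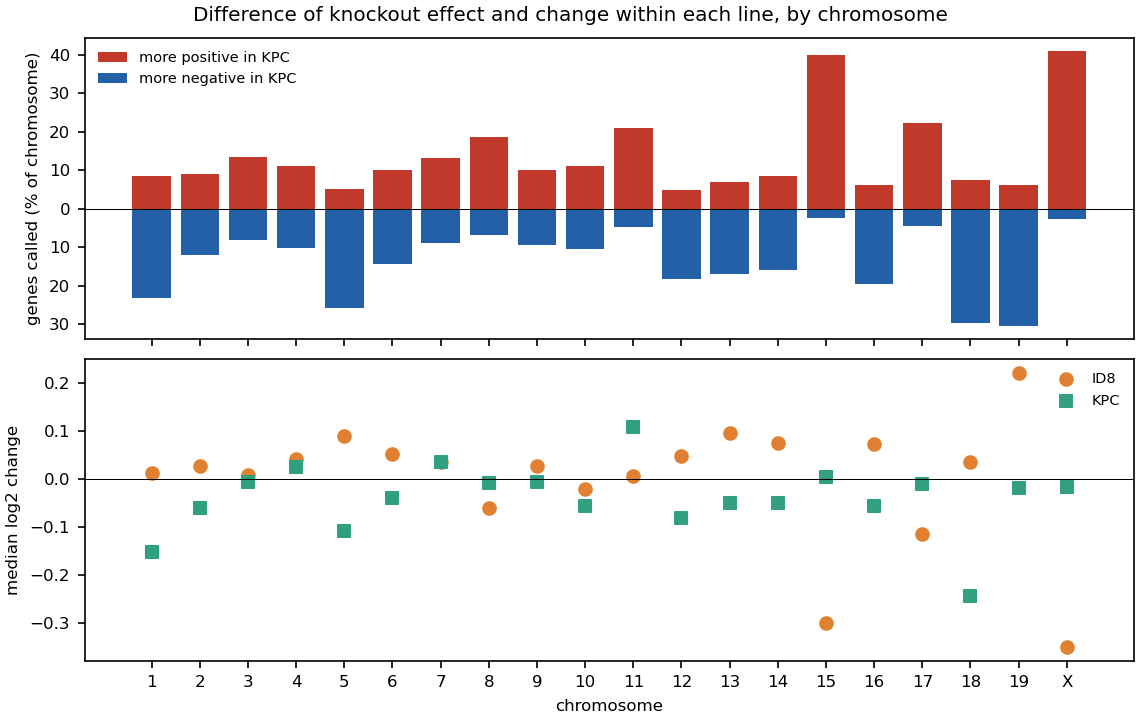
Share of genes on each chromosome with a called difference (top, % of the chromosome's genes, more positive in KPC upward and more negative downward) and median log2 change with knockout within each line (bottom). Chromosomes 15 and X stand out upward with low ID8 medians of -0.30 and -0.35, chromosome 19 has an ID8 median of 0.22, and chromosome 18 a KPC median of -0.24.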

How the data were processed

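The submitters' processing notes name HISAT, RSEM 1.2.8 and the build GRCm39 (mm39). The authors deposited expected counts per gene in 4 tables, 1 per line and genotype, of which 7.92% to 8.96% of values are not whole. No normalization by the authors is visible in the values. The tables were joined on gene ID, genes that a table did not list were set to 0 for it, and values were rounded to whole numbers. RSEM assigns reads shared by similar genes by estimate, so near-identical genes are uncertain. No source used here gives the strandedness, so overlapping antisense genes cannot be told apart.

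Totals were 17902867 to 19727536 per library, and 3 counts were taken as the floor. The floor covers counting error only. All pairs of replicates differed beyond sampling noise, and none was merged. The series text calls the samples different tumours and does not say whether each came from its own mouse, so p-values measure the spread between these samples.

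All 16 libraries were fitted in edgeR 4.0.16 (with limma 3.58.1 in R 4.3.3) after filterByExpr and TMM normalization. The interaction contrast was tested by quasi-likelihood with robust settings and Benjamini-Hochberg adjustment over all 14921 genes tested, called at 0.05. Each line was also fitted alone. Standard errors are Wald errors of the fitted contrast, and printed CPM are on the TMM scale of the joint fit. The fit was tested on simulated data. Genes were named by rule: Trp53bp1, Cgas and Sting1, the 5 largest differences each way at a mean of at least 5 CPM in each line, the 4 strongest each way in opposite directions, the 2 strongest each way in the same direction and alike, and the 2 of smallest p per list with at least 3 called genes. Predicted and unnamed genes were not named, and a few genes that the rule or lists hold are not reported here. Other list genes are named as examples, chosen after their values were seen. The gene set and all lists were chosen with earlier results of these data known. Alternatives were other size factors, DESeq2 1.42.0, limma-voom, no filter, other level rules, a 2-fold limit, a replicate block, a muscle score, removal of libraries high in Acta1 and leaving out each library. A leukocyte score, removal of genes with a group under 1 CPM and removal of chromosomes 15, 18, 19 and X were added after the data were seen. Unnamed loci stayed in all counts.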

Additional observations from a re-analysis of the deposited data

Results flagged for a closer look

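The knockout effect differed between KPC and ID8 for 2953 genes by the edgeR interaction test. Of the 63 genes chosen by the naming rule, 58 had a called difference. The rule took most of them from called genes, so that count follows from the choice and is no result. The log2 differences in brackets are the KPC change less the ID8 change, with adjusted p and errors for most given above. More positive in KPC were Trp53bp1 (0.76), Sting1 (0.51), Ripk3 (5.17), Gpc4 (4.99), C2 (4.06), Kif21b (3.31), F2rl2 (3.77), Acap1 (4.63), Ggt6 (4.22), Stac2 (3.00), Olfml2a (2.55), Rnaseh2c (0.48), Ddit4 (1.58), Hk1 (1.21), Ebp (1.03), Nsdhl (1.11), Vldlr (3.17), Asns (0.55), Xrcc6 (0.84), Krt18 (1.04), Epcam (3.19), Col3a1 (3.08), Myl9 (4.99), Cnn2 (0.98), Star (1.07), Sdhd (0.44), Cox7a2 (0.68), Me1 (0.75), G6pdx (0.64), Inhbb (1.17), Wnt7b (1.94). More negative in KPC were Saa3 (-5.80), Neurl3 (-3.95), Oas1a (-3.80), Mt2 (-3.52), Vcam1 (-3.29), Celsr2 (-3.50), Fahd2a (-2.47), Avil (-2.89), Prss12 (-2.61), Ccl20 (-3.21), Gbp9 (-2.02), Kcnh2 (-1.62), Oas2 (-6.74), Rsad2 (-3.02), Nfkbiz (-2.31), Aen (-0.97), Kif11 (-0.65), Ccne1 (-1.36), Atm (-1.06), Kmt5a (-0.41), Rif1 (-0.70), Timp2 (-1.02), Aldh1a1 (-2.36), Ski (-0.61), Lrp5 (-0.70). Ripk3, Gpc4, C2, Myl9, Ggt6, Acap1, Neurl3, Fahd2a, Avil, Ccl20, Saa3, Oas1a, Oas2, Rsad2 and Pmaip1 passed the level rule in ID8 only through the group where they were high. So did Cxcl2, named above as an example. F2rl2, Epcam and Vldlr in ID8, and F2rl2, Kcnh2 and Ccl20 in KPC, passed mostly through such a group. The fitted value of Pmaip1 (10.69) rests on a group with 0 counts and is no bound, and that of Oas2 rests on 2 counts over the ID8 wild-type libraries.

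In 7 of 126 groups of 5 KPC libraries 1 library stood far from the other 4, where chance gives about 1 in 20, and all but 1 of these are given here. Wild-type replicate 4 was high for Sting1 (151 CPM, next 119) and Gpc4 (17.6 CPM, next 12.3). Knockout replicate 4 was high for Ski (149 CPM, next 120). Wild-type replicate 5 was low for Vcam1 (166 CPM, next 250). Knockout replicate 5 was high for Kcnh2 (1.29 CPM, next 0.83), and knockout replicate 2 for Olfml2a (4.67 CPM, next 3.49).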

How the results depend on the processing

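The count of 2953 genes was 2355 to 3960 under the other size factors, tests, filters, level rules, covariates and removals of genes or libraries tried, and 2075 to 3192 when single libraries were left out. It was 669 with a 2-fold limit (433 more positive, 236 more negative), under which the Trp53bp1 difference of 0.76 is below the limit, cholesterol genes had 4 calls, oxidative phosphorylation genes 1, chromosome 15 had 38 and chromosome X 22. Replicate numbers did not pair the samples (correlations of same-numbered samples -0.383 to 0.415, own number best in 2 of 8), and with a replicate block 2479 genes were called and no named gene's call changed. The KPC count of 1377 was 2229 by DESeq2, 266 with the muscle score, 238 with the leukocyte score and 622 to 2061 over left-out libraries. Genes with opposite signs numbered 220 to 677 and with the same sign 159 to 510 over left-out libraries. Interferon-stimulated genes more negative in KPC were 7 at a 5 CPM rule, 31 with the leukocyte score and 8 without genes under 1 CPM in a group, and NF-kB targets 7 in the last case. With the leukocyte score hypoxia genes more positive in KPC were 18, oxidative phosphorylation genes 7 and NF-kB targets 0, and Cgas reversed to -0.78. Without libraries high in Acta1 oxidative phosphorylation had 21 calls, and 8 to 20 over left-out libraries. Without chromosomes 15, 18, 19 and X cholesterol and epithelial genes had 7 calls each. Against the main direction, hypoxia had 1 call by DESeq2, with the muscle score and without libraries high in Acta1 (0 to 1 over left-out libraries), and epithelial genes 1 by limma-voom and 2 without those libraries (0 to 1). Interferon-stimulated genes more positive in KPC were 1 and NF-kB targets 2 without those libraries (0 to 1 and 0 to 2 over left-out libraries). The cause was not tested. Size factors moved the median difference from -0.0172 to at most -0.0315. At n = 3 and n = 5, with a median standard error of 0.147, small differences could not be called.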
